A study of Mus musculus with 6 samples.

Results

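Pericytes and vascular smooth muscle cells, together called mural cells, wrap the endothelial tube of brain vessels. This group holds 10 genes that mark them, picked by symbol from the 21899 genes of the deposited counts, and all 10 were found. Pdgfrb, Rgs5, Abcc9, Vtn, Anpep, Notch3 and Higd1b stand for pericytes, and Acta2, Tagln and Myh11 for smooth muscle. The thalamus of male C57BL/6J mice, wild type and 8 to 10 weeks old when purchased, was irradiated once with 50 Gy in both groups. After 2 weeks each mouse received 2 µL of AAV9 virus in the thalamus. RC mice (n = 3) received GFAP104::tdTomato, a red fluorescent protein alone, and RN mice (n = 3) received GFAP104::mND1-tdTomato, which adds mouse NeuroD1. The GFAP104 promoter is meant to act in astrocytes, so mural cells were not the aim of the virus. Tissue beneath the hippocampus was taken 6 weeks after irradiation and sequenced in bulk. Whether more or fewer mural cells, or more or less RNA per cell, lie behind a level cannot be told apart in such data. Normal mice were not analysed here.

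Endothelial cells attract pericytes with the growth factor PDGF-B, which binds the receptor encoded by Pdgfrb on the pericyte surface. The Notch3 receptor, also on mural cells, keeps them mature and answers ligands on neighbouring cells. Pericytes of the capillaries help to form the blood-brain barrier and the basement membrane, and smooth muscle cells of arterioles contract and set blood flow. Vessel density in the irradiated thalamus was one of the questions of the study, which stained endothelium but no mural marker. Its stained sections were taken at a later time than the RNA. The comparison below asks how the transcripts of mural cells differed between RN and RC at the time of sequencing.

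The libraries held between 16561663 and 18657015 counts. Neurod1, the gene of the virus, had 4.71 to 5.44 CPM in RC against 50.9 to 91.5 CPM in RN (CPM, counts scaled by library size and TMM factor). The choroid plexus makes cerebrospinal fluid, and its 12 marker genes, none at 0 in any mouse, summed to between 330.2 and 8440 CPM in RC but to between 76.2 and 152.6 CPM in RN. The 9 thalamus markers summed to 990.2 to 1970 CPM in RC against 729.8 to 1423 CPM in RN. The 5 red cell markers had a median log2 fold change of -0.87, and 0 of them passed an unadjusted p under 0.05. The part of these differences in the values below was tested only where a fit with a score of the list is given.

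All 10 mural genes were detected in every mouse and passed the filter on low counts, with Higd1b lowest at 18 to 43 counts. Per kilobase of exon, the mean level in RC was highest for Vtn, at 51.7 ± 0.806 CPM per kb (SD, n = 3 mice), and next for Rgs5, at 30.5 ± 8.02. Acta2 and Tagln followed at 11.4 ± 3.77 and 9.05 ± 3.64 CPM per kb, and their mice overlapped. Anpep at 6.16 ± 1.08, Pdgfrb at 5.16 ± 0.352 and Notch3 at 4.81 ± 0.584 CPM per kb overlapped with their neighbours in this order. Myh11 lay apart below Notch3 at 2.31 ± 0.811, and Higd1b and Abcc9, both at 1.70 CPM per kb, overlapped at the lowest level. In RN Anpep stood next after Rgs5 at 13.8 ± 2.74 CPM per kb, overlapping with Tagln but apart from Pdgfrb, and the other 9 genes kept their order among themselves.

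The levels of 9 of the 10 genes overlapped between RN and RC, and Anpep alone was higher in every RN mouse than in every RC mouse. None passed an adjusted p under 0.05 with a fold change of at least 2 in edgeR's quasi-likelihood test (Benjamini-Hochberg over 14956 tested genes), a rule that called 0.0735% of all tested genes (0.0602% higher and 0.0134% lower in RN). At an unadjusted p under 0.05, 1 of the 10 was higher and 0 were lower, against 5.44% higher and 6.33% lower among all tested genes, or 11.8% in all. These shares are also the background for the counts of each gene list at that threshold below. The groups did not overlap for 1 of the 10, against 16.3% of all tested genes (8.18% higher and 8.12% lower in RN). DESeq2's Wald test called 1 of the 10, Anpep, where it called 1.15% of the genes to which it gave an adjusted p, 0.61% in the higher direction. The median log2 fold change was 0.023 over the 10 genes and 0.0037 over all tested genes. For 8 of the 10 the 95% interval of the difference lay within a 2-fold change either way, as it did for 81.2% of all tested genes.

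**Figure D1:**
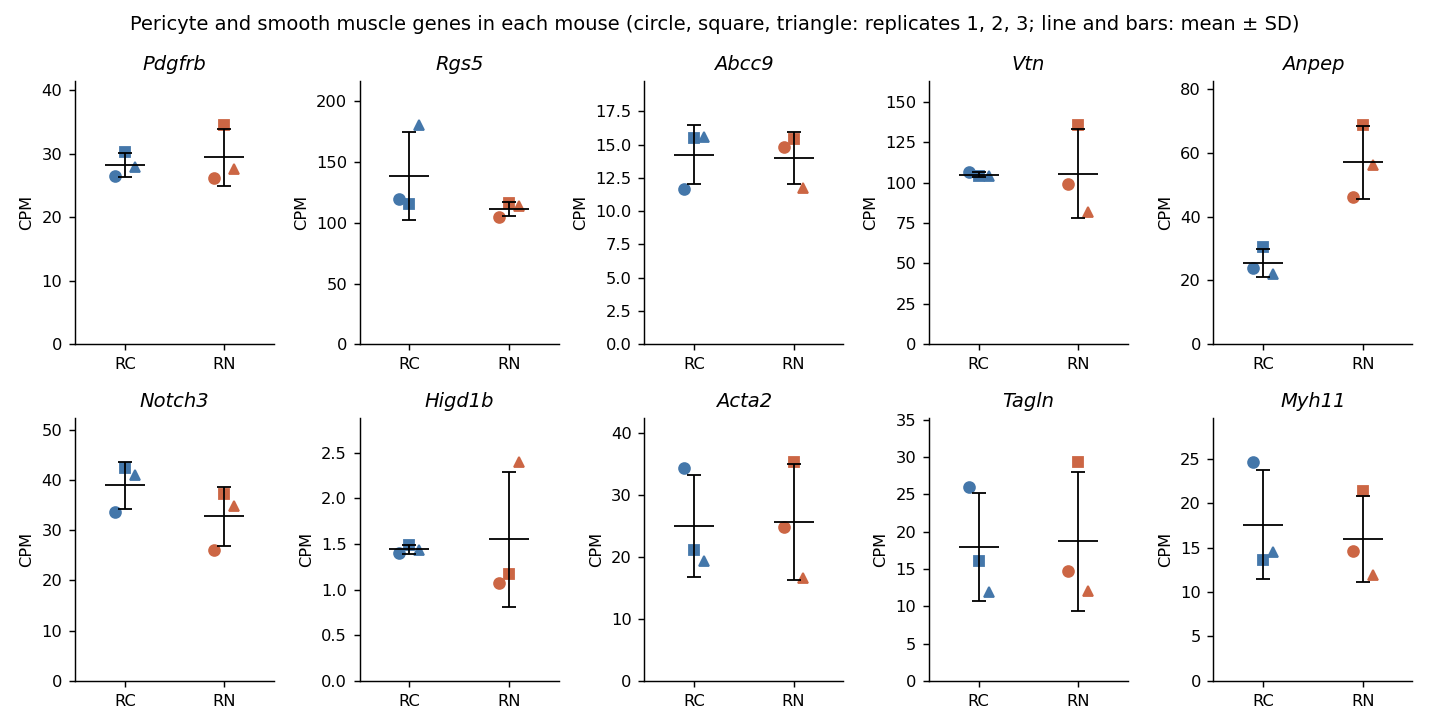
Level of each mural gene in CPM (vertical axes, each from 0) in the 3 RC and 3 RN mice, with replicates 1, 2 and 3 as circle, square and triangle and the mean ± SD in black. Anpep is the only panel in which the groups separate, with RC between 22.1 and 30.5 CPM and RN between 46.1 and 68.7 CPM.

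Anpep (ENSMUSG00000039062) encodes aminopeptidase N, also called CD13, an enzyme on the cell surface that trims peptides. It marks pericytes in the brain, but myeloid cells and fibroblasts are known to make it too. RC replicates 1 to 3 had 23.8, 30.5 and 22.1 CPM, and RN replicates 1 to 3 had 46.1, 68.7 and 56.1 CPM. Every RN mouse lay above every RC mouse. The means were 25.5 ± 4.48 CPM in RC against 57.0 ± 11.3 CPM in RN (SD, n = 3 in each group), a 2.24-fold difference with a 95% interval from 1.69 to 2.96. On the log2 scale this was 1.16 with a standard error of 0.175, and edgeR gave an adjusted p of 0.0661, so it missed the threshold over all genes. With the replicate number as a block, edgeR gave an adjusted p of 0.0378 and Anpep was called, as were 0.147% of all tested genes (0.114% in the higher direction). DESeq2's Wald test gave an adjusted p of 3.51e-07. Over all 17 alternatives the adjusted p of Anpep ran from 3.51e-07 to 0.199 and its log2 fold change from 1.00 to 1.57.

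Markers of the other cells that are known to make Anpep were measured beside it. The 9 microglia and macrophage markers, none at 0 in any mouse, summed to 2753 to 3132 CPM in RC against 2503 to 3697 CPM in RN. Their median log2 fold change was -0.076, with 1 of the 9 higher and 0 lower at an unadjusted p under 0.05. That gene was Cd68, a lysosomal protein of phagocytes, at 0.60 without overlap (adjusted p of 0.208 in edgeR and 0.0246 in DESeq2's Wald test). The 15 fibroblast markers, again with none at 0, summed to 220.0 to 557.8 CPM in RC against 280.8 to 608.1 CPM in RN. Over the 6 mice, group means taken out, Anpep had a Pearson correlation of 0.719 with the microglia and macrophage score. With the endothelial score it was 0.652 and with the fibroblast score 0.499, all descriptions without a test. In a fit that held the fibroblast score, the log2 fold change of Anpep was 1.10 and the edgeR adjusted p 0.102. One that held the microglia and macrophage score gave 1.11 with 0.0467, and one that held the choroid plexus score gave 1.51 with 0.144. The thalamus score gave 1.04 with 0.0993, and the endothelial score 1.57 with 0.188. The choroid plexus and endothelial scores did not overlap between the groups, so fits that hold them separate score and group poorly.

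**Figure D2:**
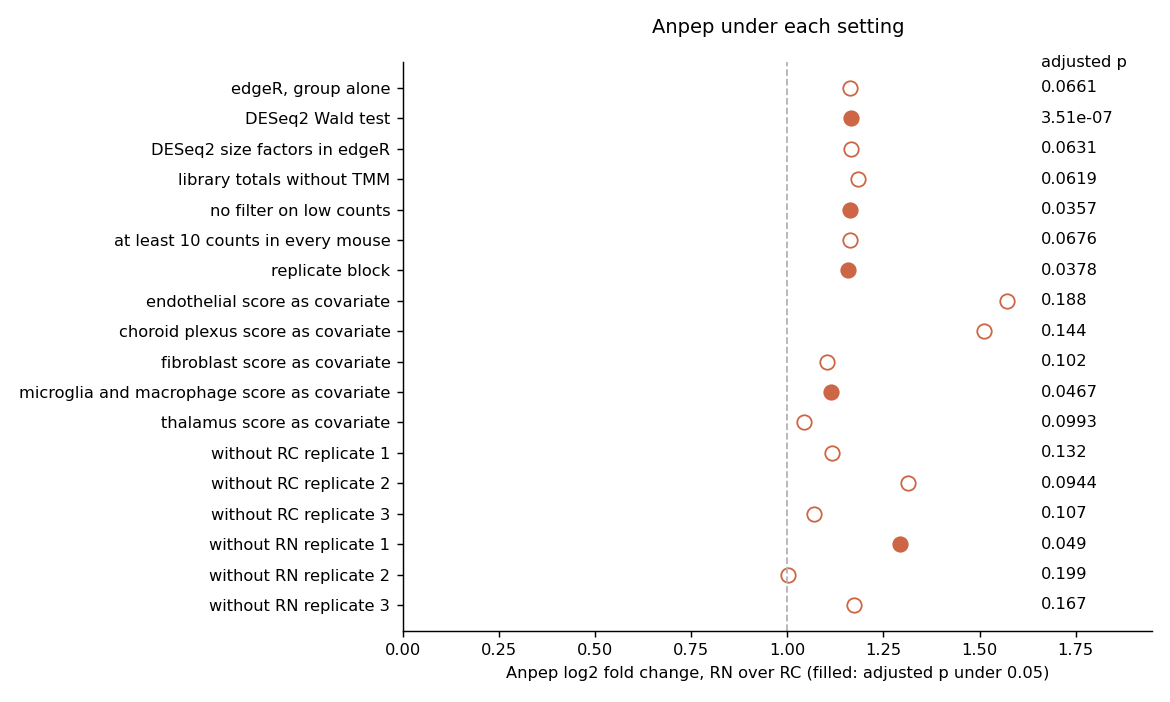
Log2 fold change of Anpep, RN over RC (horizontal axis), under each setting, with the adjusted p at the right and filled points where it lies under 0.05. All 18 points lie at or above 1.00, while the side of the threshold depends on the setting.

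The stretch before and after the start of Anpep is shown because it is the member that differed. RefSeq's window around the start (GRCm38.p6, minus strand, chr7:79848161-79848460) is written 5′ to 3′, with each match to CANNTG in capitals. CANNTG is the E-box, the motif to which factors of NeuroD1's family are known to bind.
Anpep: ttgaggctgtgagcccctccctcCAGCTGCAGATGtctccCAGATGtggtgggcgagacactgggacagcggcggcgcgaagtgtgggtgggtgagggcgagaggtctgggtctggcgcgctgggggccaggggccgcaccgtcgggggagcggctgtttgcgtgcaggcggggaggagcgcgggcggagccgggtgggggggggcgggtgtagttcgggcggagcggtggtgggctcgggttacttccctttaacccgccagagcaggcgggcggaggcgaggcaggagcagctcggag
The window holds 3 matches to CANNTG, of which 2 read CAGATG, searched on both strands (as CATCTG on the other). At least 1 CANNTG match stands in 72.3% of all 32851 RefSeq windows of the same length, and the median window holds 1. At least 2 CAGATG matches stand in 1.83%. That cut equals the count of Anpep itself, so this share is a description and not a test. A match of letters describes the window and does not show binding. Of the 10 members, 6 had a window in this table. The windows of Abcc9, Acta2, Notch3, Rgs5 and Vtn held 0 matches to CAGATG, as most windows do. At least 1 CAGATG match stands in 17.2% of all 32851 windows.

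Among the receptors, Pdgfrb (ENSMUSG00000024620), through which PDGF-B recruits pericytes, had 26.5, 30.3 and 28.0 CPM in RC replicates 1 to 3 and 26.1, 34.5 and 27.6 CPM in RN replicates 1 to 3. The groups overlapped, and RN replicate 2 was the highest mouse. Its log2 fold change was 0.060 with a 95% interval from -0.24 to 0.36 (edgeR adjusted p = 0.923). Notch3 (ENSMUSG00000038146), the Notch receptor of mural cells, had 33.5, 42.3 and 41.0 CPM in RC against 26.1, 37.3 and 34.9 CPM in RN. Each RN mouse lay below the RC mouse of the same number, but the groups overlapped, with a log2 fold change of -0.25 and a 95% interval from -0.61 to 0.11. Its adjusted p was 0.617 from edgeR and 0.294 with the replicate block. An annotated gene on the opposite strand, Gm17276, covers 6.03% of the exon bases of Notch3. The library kit named in the labels does not mark strand, so reads of the pair cannot be told apart over that shared stretch.

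Rgs5 (ENSMUSG00000026678), which damps G protein signals in pericytes, had 119.7, 115.6 and 180.7 CPM in RC against 105.1, 116.0 and 113.7 CPM in RN. RC replicate 3 stood above the other 5 mice, and the remaining RC mice lay close to the RN mice. The log2 fold change was -0.31 with an interval from -0.70 to 0.072 (edgeR adjusted p = 0.542), and -0.076 without RC replicate 3. With group means taken out, Rgs5 ran opposite to the choroid plexus score over the 6 mice (Pearson r = -0.919). This is a description only, from many pairs of gene and score. It rested on RC, where replicate 3 had the highest Rgs5 and the lowest score. RN did not share it, as RN replicate 1 had both the lowest Rgs5 and the lowest score of that group. A fit that held this score put Rgs5 at -0.77 (edgeR adjusted p = 0.190), and one that held the thalamus score put it at -0.15 (edgeR adjusted p = 0.849). The choroid plexus score did not overlap between the groups, so the fit that holds it separates score and group poorly. RC replicate 3, the RC mouse with the least choroid plexus RNA, also had the highest thalamus score.

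Abcc9 (ENSMUSG00000030249) encodes SUR2, the regulatory subunit of the potassium channel by which energy state sets the membrane voltage of mural cells. It had 11.7, 15.5 and 15.6 CPM in RC against 14.8, 15.4 and 11.7 CPM in RN, with overlapping groups and a log2 fold change of -0.026 (interval -0.42 to 0.37). Over the 6 mice, group means taken out, Abcc9 ran closely with the red cell score (Pearson r = 0.999, picked after its value was seen). Kcnj8, the pore subunit that pairs with it, had 3.93, 6.93 and 4.75 CPM in RC against 2.80, 6.79 and 4.59 CPM in RN. The groups of Kcnj8 overlapped as well, and its interval, from -0.94 to 0.67, was wider (edgeR adjusted p = 0.937).

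Vtn (ENSMUSG00000017344) encodes vitronectin, a matrix protein that pericytes release. The RC mice were nearly alike, at 106.9, 104.1 and 104.0 CPM, whereas RN had 99.2, 135.8 and 81.6 CPM, on both sides of RC. The log2 fold change was 0.0073 with an interval from -0.38 to 0.39 (edgeR adjusted p = 0.992), and -0.22 without RN replicate 2. Higd1b (ENSMUSG00000020928), a mitochondrial protein that marks pericytes, had 25 counts in each RC mouse and 18, 22 and 43 in RN. Its groups overlapped, with RN replicate 3 above and the other RN mice below RC, and its log2 fold change of 0.10 had the widest interval of the 10, from -0.80 to 1.01.

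**Figure D3:**
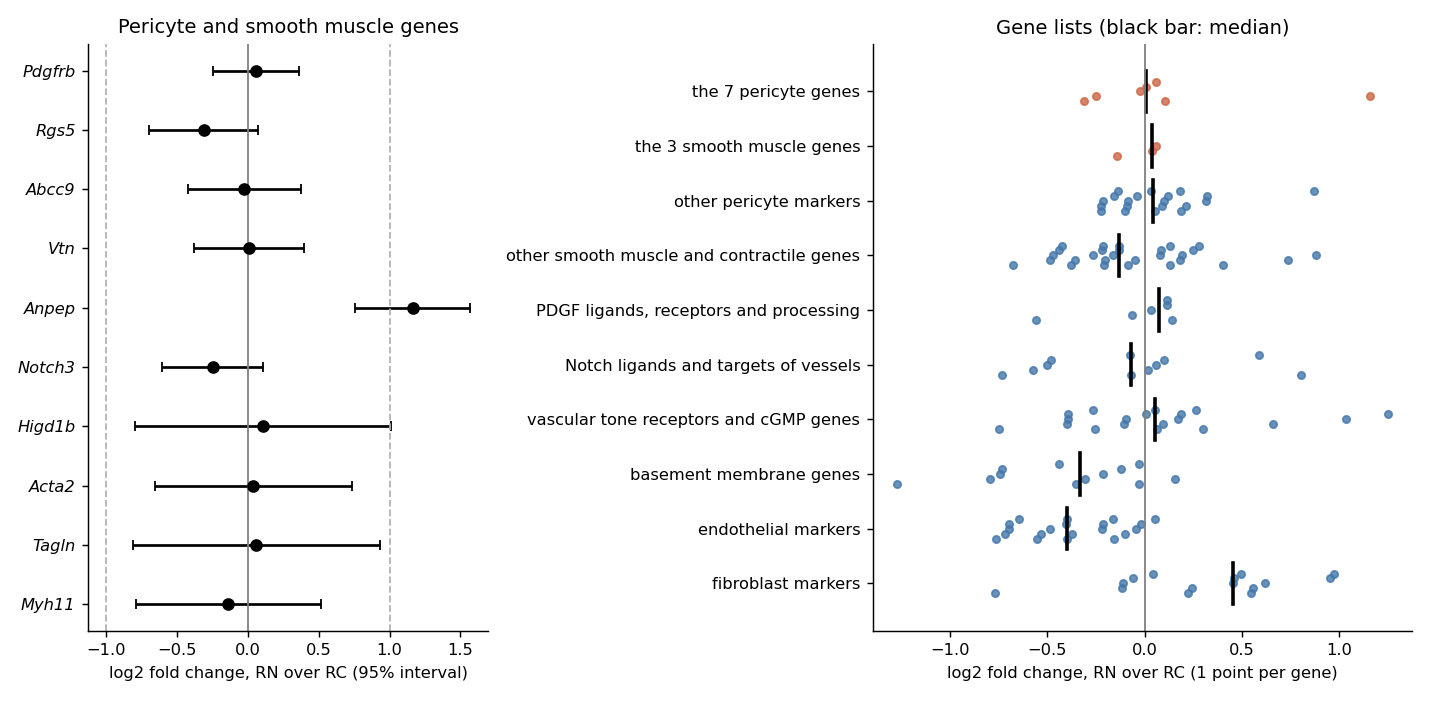
Left, log2 fold change of each mural gene, RN over RC, with its 95% interval and dashed lines at a 2-fold change. Right, the same measure for every tested gene of 10 lists, 1 point per gene and the median as a black bar. The intervals of all mural genes but Anpep span 0, and the medians run from -0.40 for the endothelial markers to 0.46 for the fibroblast markers.

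Acta2 (ENSMUSG00000035783) encodes the actin of smooth muscle fibres. RC replicates 1 to 3 had 34.5, 21.2 and 19.3 CPM, and RN replicates 1 to 3 had 24.9, 35.4 and 16.7 CPM. RC replicate 1 and RN replicate 2 stood together above the other 4 mice, so the high mice came from both groups. The log2 fold change was 0.039 with an interval from -0.66 to 0.73 (edgeR adjusted p = 0.982). Tagln (ENSMUSG00000032085), an actin-binding protein of contractile cells, had 26.0, 16.1 and 11.9 CPM in RC against 14.8, 29.4 and 12.02 CPM in RN. Myh11 (ENSMUSG00000018830), the myosin heavy chain of smooth muscle, had 24.7, 13.6 and 14.5 CPM in RC against 14.6, 21.3 and 11.97 CPM in RN. In both genes the same mice, RC replicate 1 and RN replicate 2, were the highest. The log2 fold change was 0.059 for Tagln (interval -0.81 to 0.93) and -0.14 for Myh11 (interval -0.79 to 0.52). The spread between RC mice, as SD over mean, was 33.1% for Acta2, 40.2% for Tagln and 35.1% for Myh11, against 6.83% for Pdgfrb and 1.56% for Vtn. Acta2 shares much of its coding sequence with other actin genes, and Gm48529 on the opposite strand covers 62.4% of the exon bases of Tagln, so how their reads were shared out with those genes is uncertain.

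The start of Acta2 is shown as that of the smooth muscle member found in RefSeq's table. The window (GRCm38.p6, minus strand, chr19:34255324-34255623) is written in the same way as that of Anpep, with CANNTG in capitals.
Acta2: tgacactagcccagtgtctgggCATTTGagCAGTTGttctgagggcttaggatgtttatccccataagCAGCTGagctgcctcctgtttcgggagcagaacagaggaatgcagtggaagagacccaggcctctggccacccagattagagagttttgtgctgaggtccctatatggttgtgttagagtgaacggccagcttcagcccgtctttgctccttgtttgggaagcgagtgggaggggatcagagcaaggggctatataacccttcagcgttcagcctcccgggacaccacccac
It holds 3 matches to CANNTG and 0 to CAGATG. The strict form of the CArG box (CC, then A or T only, then GG), the motif of serum response factor in muscle genes, was found in 0 places here. It was found in 1.63% of all windows. The window does hold ccctatatgg and ccttgtttgg, which each break the strict form at a single letter. Such looser forms were not searched, so the count of 0 does not show that the motif is lacking.

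With the group means taken out, Acta2, Tagln and Myh11 followed each other closely over the 6 mice. Their pairwise Pearson correlations were 0.961, 0.953 and 0.927, the only values above 0.9 among the 45 pairs of mural genes. The next closest pair was Pdgfrb with Anpep at 0.874. Higd1b and Rgs5, by contrast, were not close to any of the smooth muscle genes, with correlations from -0.669 to -0.202. Notch3 and Abcc9 were not close to them either, at -0.250 to 0.0085. These values rest on 6 libraries that share depth and dissection, and are descriptions without a test. The summed level of the 3 smooth muscle genes per summed level of the 7 pericyte genes was 0.263, 0.150 and 0.116 in RC and 0.170, 0.211 and 0.124 in RN, so it was highest in RC replicate 1 and RN replicate 2 and the groups overlapped.

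The smooth muscle genes, and Vtn among the pericyte genes, also ran with the fibroblast markers, genes of the connective tissue cells that sit in the meninges and around larger vessels. The correlation with the fibroblast score, group means taken out, was 0.922 for Acta2, 0.953 for Tagln and 0.817 for Myh11, and 0.771 for Vtn. For the other pericyte genes it was 0.499 for Anpep, 0.481 for Pdgfrb, 0.081 for Abcc9, -0.099 for Notch3, -0.574 for Rgs5 and -0.589 for Higd1b. With the endothelial score the 3 smooth muscle genes had correlations of 0.523, 0.728 and 0.635. Fits that held the fibroblast score gave log2 fold changes of -0.18, -0.22 and -0.31 for Acta2, Tagln and Myh11, with adjusted p from 0.645 to 0.755 in edgeR. Fits that held the endothelial score went the other way, to 0.71, 1.18 and 0.58, with adjusted p from 0.767 to 0.884 and an unadjusted p of 0.043 for Tagln. The sign of these genes thus depended on the score in the fit. The endothelial score did not overlap between the groups, from 0.086 to 0.316 in RC and from -0.396 to -0.022 in RN. A fit that holds this score therefore separates it poorly from the group. Col1a1, a collagen chain of fibroblasts, had 21.6, 22.2 and 9.62 CPM in RC against 18.1, 39.1 and 18.2 CPM in RN, and was highest in RN replicate 2. Of the 15 fibroblast markers, 2 were higher in RN at an unadjusted p under 0.05 and 0 lower, namely the collagen chains Col6a1 and Col3a1 with log2 fold changes of 0.97 and 0.95 and adjusted p of 0.173 and 0.419 in edgeR and of 0.00909 and 0.571 in DESeq2's Wald test.

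**Figure D4:**
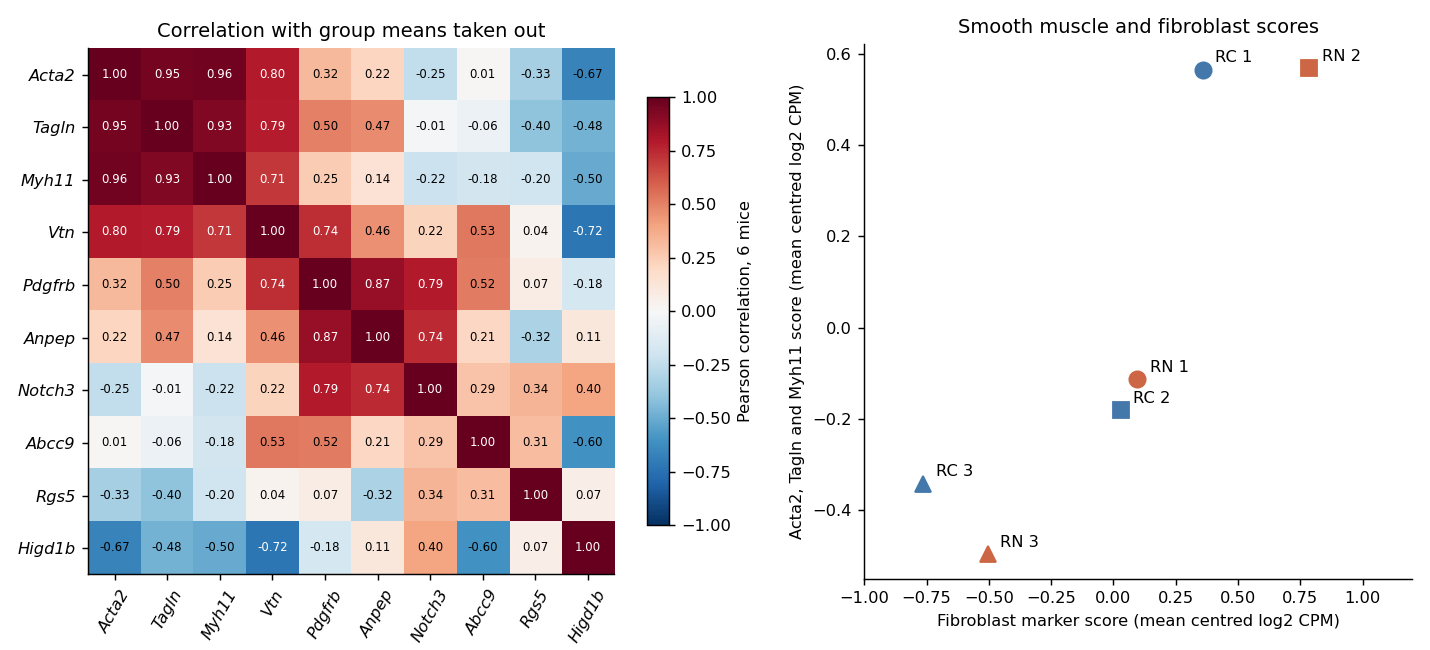
Left, Pearson correlation between mural genes over the 6 mice after group means were taken out. Right, the score of Acta2, Tagln and Myh11 against the fibroblast score, each a mean of centred log2 CPM, with 1 point per mouse. The 3 smooth muscle genes form the darkest block at 0.927 to 0.961, and RC replicate 1 and RN replicate 2 lie highest on the vertical axis.

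Among 20 other pericyte markers, all tested, 0 passed an adjusted p under 0.05, and S1pr3 alone passed an unadjusted p under 0.05, in the higher direction. S1pr3, a receptor for sphingosine 1-phosphate, had 28.1, 36.1 and 24.9 CPM in RC against 36.8, 66.9 and 59.6 CPM in RN, so that the lowest RN mouse lay just above the highest RC mouse. Its log2 fold change was 0.87 (standard error 0.228). The adjusted p was 0.176 in edgeR and 0.00689 in DESeq2's Wald test. The median log2 fold change of the 20 was 0.043. Of 30 other genes of smooth muscle and the contractile machinery, 28 were tested and 0 passed an adjusted p under 0.05 in edgeR, with 1 higher and 3 lower at an unadjusted p under 0.05. The lower ones were Csrp1 at a log2 fold change of -0.47, the smoothelin gene Smtn at -0.44 and the caldesmon gene Cald1 at -0.27, with adjusted p of 0.188, 0.283 and 0.377 in edgeR and of 0.0232, 0.260 and 0.437 in DESeq2's Wald test. Csrp1 and Cald1 are also made by other cells of the brain.

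The signals that reach mural cells were read from lists of ligands, receptors and targets. In the PDGF list 0 of 6 genes passed an unadjusted p under 0.05 in either direction. Pdgfb, the ligand of Pdgfrb, had 32.0, 30.1 and 30.1 CPM in RC against 29.7, 33.1 and 37.2 CPM in RN, with overlapping groups and a log2 fold change of 0.12 (interval -0.14 to 0.37, edgeR adjusted p = 0.774). In the Notch list 2 of 11 genes were higher and 3 lower at an unadjusted p under 0.05, and 0 passed an adjusted p under 0.05 in edgeR. Heyl, a transcriptional repressor and a Notch3 target in mural cells, had 13.0, 13.6 and 9.91 CPM in RC against 23.1, 24.1 and 16.6 CPM in RN, without overlap. The log2 fold change of Heyl was 0.80 (standard error 0.190), and its adjusted p was 0.141 in edgeR and 0.00845 in DESeq2's Wald test. Hey1, a related repressor, had a log2 fold change of -0.48 and Dll4, a ligand of endothelial cells, of -0.74, again without overlap. Their adjusted p was 0.137 and 0.324 in edgeR, and 0.0201 and 0.247 in DESeq2's Wald test. Jag1, the ligand through which endothelium is known to reach Notch3, overlapped between the groups at a log2 fold change of -0.067. Other cells of the brain also make Hey1 and Heyl.

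Among 19 receptors and cyclic nucleotide genes that set vascular tone, 3 were higher and 1 lower at an unadjusted p under 0.05, and 0 passed an adjusted p under 0.05 in edgeR. The higher genes were Pde3a, Agtr1a and Avpr1a, of which the first pair did not overlap between the groups, and the lower was Ednrb, an endothelin receptor that astrocytes also make, with a log2 fold change of -0.40 (adjusted p = 0.204). Agtr1a, an angiotensin receptor, had 0.393 to 0.538 CPM in RC against 1.01 to 1.34 CPM in RN, close to the level at which 3 counts lie (0.161 to 0.181 CPM). In the list of TGF beta and angiopoietin signalling 1 of 14 genes was higher and 4 lower at the same threshold, with Angpt2, Tie1 and Eng at log2 fold changes of -2.18, -0.55 and -0.80 and edgeR adjusted p of 0.0696, 0.137 and 0.161. In DESeq2's Wald test these 3 passed, at 7.67e-04, 0.0207 and 0.00519. Angpt2, a ligand that loosens the hold of endothelium on mural cells, also passed in edgeR with no filter on low counts (0.0357), with the microglia and macrophage score (0.0264) and without RN replicate 1 (0.0490), and its adjusted p over all alternatives ran from 7.67e-04 to 0.733. Of 12 basement membrane genes, which endothelium and pericytes make together, 4 were lower and 0 higher at an unadjusted p under 0.05. Among all tested genes 6.33% were lower and 5.44% higher at that threshold. The 4 included Nid2 at -1.27 and the perlecan gene Hspg2 at -0.80. Their adjusted p was 0.193 and 0.244 from edgeR, and 0.00895 and 0.0353 from DESeq2's Wald test. DESeq2 put 1.55% of all genes lower at an adjusted p under 0.05.

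The endothelium that mural cells cover was compared last. Of 20 endothelial markers, 11 were lower and 0 higher in RN at an unadjusted p under 0.05, against 6.33% lower and 5.44% higher among all tested genes. In edgeR 0 passed an adjusted p under 0.05, and the list summed to 1039 to 1178 CPM in RC against 743.6 to 976.0 CPM in RN. Pecam1, which encodes the CD31 that the study stained at a later time, had a log2 fold change of -0.70 (interval -1.02 to -0.37). Its adjusted p was 0.122 in edgeR and 0.00144 in DESeq2's Wald test. DESeq2 called 5 of the 20 lower at an adjusted p under 0.05, namely Pecam1, Cdh5, Kdr, Tie1 and Slco1c1, against 1.55% of all genes lower and 1.38% higher at that threshold. Cldn5, the tight junction protein of the barrier, had -0.22 (interval -0.65 to 0.21). Divided by Pecam1 in the same mouse, Pdgfrb had log2 ratios of -1.58, -1.08 and -1.29 in RC and -0.43, -0.45 and -0.79 in RN. Every RN mouse had more Pdgfrb per Pecam1 than every RC mouse, with a mean difference of 0.76 in the log2 ratio. The groups did not overlap, and RN was higher, for Pdgfrb, Abcc9, Vtn, Anpep, Notch3 and Higd1b, that is for 6 of the 10. Of all tested genes with a count in every mouse, 73.5% were likewise higher relative to Pecam1 without overlap. Pecam1 itself was lower in every RN mouse than in every RC mouse, which raises the ratio of a gene that did not change. The 6 of 10 lay near the share of all genes and is not particular to the mural genes. In the fit that held the endothelial score the median log2 fold change of the 10 was 0.32, and 0 of the 10 had an adjusted p under 0.05 in edgeR. That score did not overlap between the groups, which limits this fit.

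**Figure D5:**
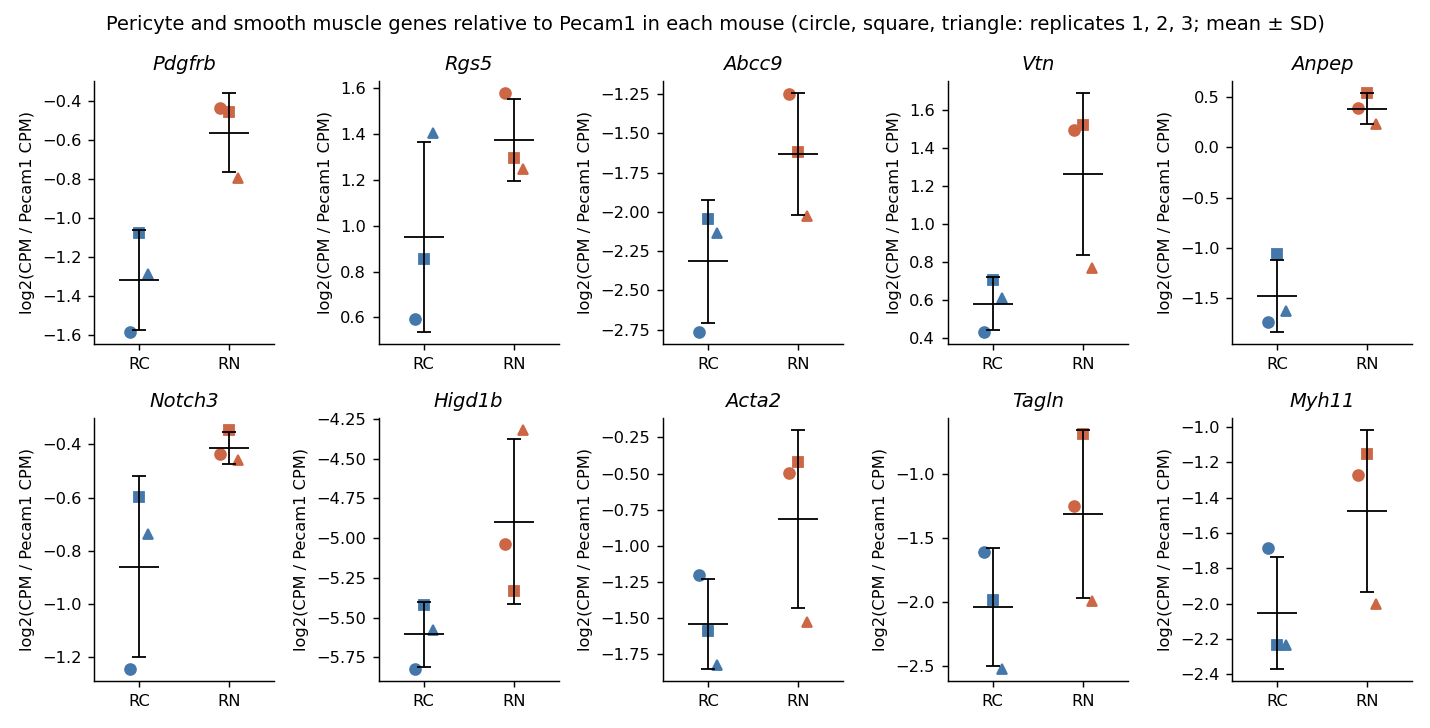
Log2 ratio of each mural gene to Pecam1 (vertical axes) in the 3 RC and 3 RN mice, with the mean ± SD in black. The mean is higher in RN in all 10 panels, by 0.42 for Rgs5 to 1.86 for Anpep, and the groups overlap for Rgs5, Acta2, Tagln and Myh11.

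The genes whose levels followed the mean of the 10 mural genes most closely within the groups were Vkorc1, Prmt9, Gorasp2, Apcdd1 and Tmem243, with Pearson correlations from 0.992 to 0.996 over 6 mice. Among the 14946 tested genes outside the group, 1.27% had a correlation above 0.9, which is the background for these values.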

How the data were processed

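The members and gene lists were chosen with earlier results of these data known. The authors deposited whole-number counts of reads per gene for each mouse, without normalization. Their processing notes name fastp 0.18.0, FastQC, HISAT2 2.2.4, RSEM 1.2.19 and GRCm39, with no role or order. The library kit in the labels (NEBNext Ultra RNA) does not mark strand. The annotation and any rounding are not given in the sources used here. No gene coordinates are printed, apart from the windows of RefSeq (GRCm38.p6).

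Genes of low count were removed with filterByExpr in edgeR 4.0.16 (R 4.3.3, minimum count 10), which left 14956. After TMM scaling, each gene's difference between RN and RC came from glmQLFit and glmQLFTest (edgeR's quasi-likelihood test) with group as the only term, and p-values were adjusted by Benjamini-Hochberg over all tested genes. Fitted log2 fold changes used a prior count of 0.125 and log2 CPM a prior count of 2. Intervals are 95% intervals from the standard error and the fit's degrees of freedom. The study's methods name DESeq2, run here as an alternative (1.42.0, Wald test, genes with any count), and its thresholds were kept (adjusted p under 0.05, fold change of at least 2). The fits were tested on simulated data. Exon lengths and overlaps came from GENCODE M21 (GRCm38). The lengths scale levels only, and the overlaps change no value. Further overlaps on the opposite strand were Pcsk7 over 5.43% of the exon bases of Tagln and 5330439B14Rik over 1.89% of those of Abcc9. A score is the mean log2 CPM of a list, each gene centred over the 6 mice. The endothelial and choroid plexus scores did not overlap between RC and RN. Fits that hold either therefore separate it poorly from the group. Of 220 list entries, 219 matched by symbol and 1 by identifier.

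A chi-square test between libraries of a group gave 16.3 to 32.9 per degree of freedom, far from the sampling noise of 1 library deposited again, and all 6 were used. The labels give replicates but do not say that each is a separate animal. They are called mice here, and p-values measure the spread between these libraries. Counting error alone is covered by the 3 counts that a count of 0 allows. RC and RN share replicate numbers. Over all tested genes, the deviations of mice of the same number from their group means had correlations of 0.173, 0.120 and 0.209. Mice of unlike number had -0.285 to 0.156, the highest for RC replicate 1 with RN replicate 2, so the ranges overlap. Whether the numbers mark a pairing is not known, and the fit with the replicate number as a block is given where it changes a call. The named genes are the 10 members, Neurod1, chosen partners (Kcnj8, Pdgfb, Jag1, Dll4, Heyl, Pecam1, Cldn5, Ttr, Col1a1), up to 3 genes of each other list by smallest p (1 planned list is not reported here), and the 5 genes most like the members. Avpr1a, Cdh5, Slco1c1 and the relation of Abcc9 with the red cell score were named after their values were seen. The lists of astrocyte, neuron and oligodendrocyte lineage genes had 7, 0 and 0 genes lower and 0, 1 and 0 higher at an unadjusted p under 0.05.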

Additional observations from a re-analysis of the deposited data

How the results depend on the processing

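The count of called members was 0 with edgeR on group alone and 1, Anpep, with DESeq2's Wald test, with no filter on low counts, with the replicate block, and with the microglia and macrophage score, a covariate chosen after seeing the data, as was the thalamus score. It was 0 to 1 with each mouse left out, the 1 without RN replicate 1. The same rule called 1.15% of all genes with DESeq2, 0.229% with no filter, 0.147% with the block, 0.207% with the microglia and macrophage score and 0.198% without RN replicate 1, against 0.0735% with group alone. The count at an adjusted p under 0.05 took the same values in each of these fits. At an unadjusted p under 0.05, 1 member passed, and 2 with the replicate block and with the endothelial, choroid plexus or microglia and macrophage score (1 to 2 with each mouse left out). The members without overlap were 1, or 1 to 3 with a mouse left out, most without RC replicate 1 or RN replicate 2. The share of all tested genes without overlap was then 23.8% to 31%, against 16.3% with all mice. The median log2 fold change of 0.023 became 0.32 with the endothelial score and ran from -0.25 without RN replicate 2 to its highest value, 0.095, with each mouse left out. Directions of members near 0 turned: Abcc9 to 0.049 with the thalamus score, Vtn to -0.024 with the replicate block, -0.0048 with the choroid plexus score and -0.11 with the fibroblast score, Higd1b to -0.019 and -0.24 with the microglia and thalamus scores, Acta2 and Tagln to -0.18 and -0.22 with the fibroblast score, and Myh11 to 0.58 with the endothelial score. The choroid plexus score turned Cspg4 to 0.043, Pdgfd to 0.24, Tubb3 to -0.040, Cnp to 0.035 and Kcnj8 to 0.24. The endothelial score turned Cald1 to 0.0040, Pdgfd to 0.17, Col4a2 to 0.080, Cx3cr1 to 0.11, Kcnj8 to 0.54, Jag1 to 0.20 and Cldn5 to 0.033. With each mouse left out, the log2 fold change ran from -0.077 to 0.14 for Pdgfrb, -0.15 to 0.086 for Abcc9, -0.22 to 0.16 for Vtn, -0.36 to 0.31 for Higd1b, -0.27 to 0.34 for Acta2, -0.43 to 0.42 for Tagln, -0.41 to 0.19 for Myh11, -0.50 to 0.13 for Kcnj8 and -0.12 to 0.010 for Jag1. The cause of these changes was not tested.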
